A study of Mus musculus with 19 samples.

Results

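The collagen gene family was taken as every protein-coding gene of the deposited table whose mouse symbol has the form Col, a number, a, a number. This gave 44 genes of the 26796 in the table, and 43 of them passed the filter on low counts that left 15629 genes for testing. The genes fall into 8 classes: 11 fibrillar chains, 6 basement membrane chains, 6 chains of beaded filaments, 9 fibril-associated chains, 2 multiplexins, 3 short-chain network collagens, 4 transmembrane collagens and 3 anchoring or other collagens. Messenger RNA was sequenced from 19 whole tumours of Met1, a transplantable mouse mammary carcinoma line, labelled as breast tumour. The 27HC group held 10 tumours, from mice that received extracellular vesicles (membrane-bound particles released by cells) of neutrophils treated with 27-hydroxycholesterol (27HC), a cholesterol metabolite. The DMSO group held 9 tumours from mice given vesicles from neutrophils treated with the solvent DMSO alone. All mice bore the same line and all received neutrophil vesicles, so neither group shows tumours without vesicles. The labels give no strain, age, dose, route or time of treatment and do not say if tumours came from separate mice, so p-values measure the spread between these samples.

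Collagens are secreted or membrane proteins built from chains wound into a triple helix, and they are the main structural proteins of the extracellular matrix. Fibrillar collagens form the rope-like fibrils of connective tissue, type IV collagens the sheet under epithelium and around vessels, and type VI collagen a microfibril of beaded filaments that lies between cells and fibrils. In mammary tumours collagen is deposited by fibroblasts, vessels and the carcinoma cells themselves, and fibrillar collagen is known to stiffen the tissue and to accompany invasion. Several type IV chains are encoded in head-to-head pairs that are transcribed in opposite directions from a shared start region.

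Promoter sequences are given for the type IV pairs Col4a1 with Col4a2 and Col4a5 with Col4a6, because these pairs differ in how close their start sites lie. Those of Col1a2 and Col3a1 are given beside them. The other chains compared across tumours have no sequence here. RefSeq windows of mouse build GRCm38.p6, from 250 bases before to 50 bases after each annotated start, were found for 35 of the 44 genes. The Col4a1 window lies at chr8:11312777-11313076 on the minus strand and the Col4a2 window at chr8:11312555-11312854 on the plus strand. Their start sites are 21 bases apart and the windows share 78 bases. The Col4a5 window lies at chrX:141475169-141475468 on the plus strand and the Col4a6 window at chrX:141474027-141474326 on the minus strand, with start sites 1343 bases apart and no shared base. The windows of Col1a2, at chr6:4505368-4505667, and Col3a1, at chr1:45311288-45311587, are both on the plus strand. Each sequence runs 5′ to 3′ on the gene's own strand, and capitals mark the TATA box as TATAAA, the upstream element CCAAT and the Sp1 element GGGCGG on either strand. The motifs were searched separately, so matches may overlap.
Col4a1: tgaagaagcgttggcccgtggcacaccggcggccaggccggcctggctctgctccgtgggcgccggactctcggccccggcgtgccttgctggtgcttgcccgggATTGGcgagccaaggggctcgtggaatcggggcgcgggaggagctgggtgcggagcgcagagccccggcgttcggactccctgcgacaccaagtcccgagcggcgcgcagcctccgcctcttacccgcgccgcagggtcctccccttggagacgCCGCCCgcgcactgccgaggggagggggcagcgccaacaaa
Col4a2: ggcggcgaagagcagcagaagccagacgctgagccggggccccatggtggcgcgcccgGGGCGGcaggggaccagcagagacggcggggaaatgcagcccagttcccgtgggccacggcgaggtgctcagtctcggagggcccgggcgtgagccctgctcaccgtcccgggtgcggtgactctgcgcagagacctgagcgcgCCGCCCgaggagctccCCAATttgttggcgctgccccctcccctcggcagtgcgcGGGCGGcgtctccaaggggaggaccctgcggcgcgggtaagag
Col4a5: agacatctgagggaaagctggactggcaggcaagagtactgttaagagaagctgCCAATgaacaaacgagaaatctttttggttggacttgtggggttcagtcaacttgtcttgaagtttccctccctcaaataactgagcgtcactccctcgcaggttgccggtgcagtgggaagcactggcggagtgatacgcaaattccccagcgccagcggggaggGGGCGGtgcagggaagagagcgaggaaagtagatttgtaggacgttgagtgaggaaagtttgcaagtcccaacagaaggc
Col4a6: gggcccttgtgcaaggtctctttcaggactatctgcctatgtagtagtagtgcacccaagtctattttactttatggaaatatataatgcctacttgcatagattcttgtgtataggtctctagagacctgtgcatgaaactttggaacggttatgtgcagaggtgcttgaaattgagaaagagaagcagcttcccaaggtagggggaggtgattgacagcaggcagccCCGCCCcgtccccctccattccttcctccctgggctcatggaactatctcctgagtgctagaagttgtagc
Col1a2: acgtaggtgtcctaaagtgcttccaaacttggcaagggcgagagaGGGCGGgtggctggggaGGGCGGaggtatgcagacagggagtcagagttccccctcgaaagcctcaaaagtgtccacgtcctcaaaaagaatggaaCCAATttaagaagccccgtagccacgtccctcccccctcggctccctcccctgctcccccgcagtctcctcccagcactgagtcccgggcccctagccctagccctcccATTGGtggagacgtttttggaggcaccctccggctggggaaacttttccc
Col3a1: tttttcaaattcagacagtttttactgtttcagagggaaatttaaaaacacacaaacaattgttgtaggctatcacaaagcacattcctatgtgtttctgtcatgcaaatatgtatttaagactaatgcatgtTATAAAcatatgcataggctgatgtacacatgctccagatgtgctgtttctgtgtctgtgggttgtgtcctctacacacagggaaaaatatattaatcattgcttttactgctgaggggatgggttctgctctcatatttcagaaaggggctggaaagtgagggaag
The windows of Col4a1, Col4a2, Col4a5 and Col1a2 held CCAAT and GGGCGG, that of Col4a6 held GGGCGG alone, and that of Col3a1 held TATAAA alone. Of all 32851 RefSeq windows of this length, 13.6% held TATAAA, 37.4% held CCAAT and 35.7% held GGGCGG. These are matches of letters and not measured sites.

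Each tumour had between 28139419 and 41179056 expected counts. The 5 libraries named 27HC 1_3, 27HC 1_5, 27HC 2_3, DMSO 1_5 and DMSO 2_3 stood apart, with a count-weighted mean transcript GC content of 49.0 to 49.3%, against 50.6 to 52.3% in the other 14. They are called low-GC libraries here, and results that rest on them are also given without them. Among the marker lists, the 10 epithelial genes summed to 45.3 to 147 CPM (counts scaled to library size) in 27HC tumours and 70.1 to 148 CPM in DMSO tumours, with Cldn4, Cldn7 and Esrp1 under 1 CPM on average and Krt18 making up most of the sum. The 10 skeletal muscle genes summed to 4.79 to 3943 CPM in 27HC tumours and 6.50 to 1475 CPM in DMSO tumours, and all 10 had log2 fold changes above 0 with none past the threshold. Their median log2 fold change was 1.64, and 2 had an unadjusted p under 0.05 (edgeR), against 2.27% of all genes tested. Without the low-GC libraries all 10 lay below 0, from -1.83 for Pvalb to -0.30 for Myh1. The 12 fibroblast genes summed to 784 to 1135 CPM in 27HC tumours and 865 to 1194 CPM in DMSO tumours, and the 10 endothelial genes to 164 to 271 CPM and 160.5 to 302 CPM in the same order. Macrophage markers summed to 1738 to 3565 CPM in 27HC tumours and 1890.2 to 3398 CPM in DMSO tumours, with 1 of 10 above 0. Cartilage, bone and tendon markers summed to 173 to 519 CPM in 27HC tumours and 185 to 538 CPM in DMSO tumours, with Acan, Matn1, Matn3, Sp7 and Tnmd under 1 CPM on average. Adipocyte markers summed to 101 to 446 CPM in 27HC tumours and 175 to 397 CPM in DMSO tumours, with 8 of 9 below 0, of which 3 had an unadjusted p under 0.05. Schwann cell markers summed to 39.7 to 60.4 CPM in 27HC tumours and 44.97 to 67.6 CPM in DMSO tumours, with 8 of 9 below 0, of which 2 had such a p. Over all 15629 genes tested, 0.979% lay below 0 with such a p, and 53.9% lay above 0. Salivary gland markers summed to 15.1 to 1197 CPM in 27HC tumours and 17.5 to 6436 CPM in DMSO tumours, at medians of 22.9 and 24.5 CPM in the same order, with the highest sum in the low-GC library DMSO 1_5. Of the 4 tested salivary gland genes 3 lay below 0 and 3 had an unadjusted p under 0.05 (edgeR). Their median log2 fold change was -4.02, and none passed the threshold. The part of such tissue in the collagen values was not tested. In whole tumours, fewer cells of a type and less RNA per cell cannot be told apart.

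Collagen transcripts took 0.975 ± 0.247% of all counts in 27HC tumours (SD, n = 10) and 0.895 ± 0.196% in DMSO tumours (SD, n = 9). The share ran from 0.576 to 1.36% in 27HC tumours and from 0.5002 to 1.16% in DMSO tumours, so the groups overlapped over most of their range and the difference of 0.0793 percentage points was smaller than either SD. Without the low-GC libraries the share was 1.096 ± 0.173% in 27HC tumours and 0.951 ± 0.147% in DMSO tumours (SD, n = 7 each). Beaded filament chains gave 42.2% of collagen counts, fibrillar chains 36.7%, basement membrane chains 8.99%, fibril-associated chains 8.08% and multiplexins 2.85%. The 5 most abundant genes gave 61.8% of collagen counts and the 10 most abundant 84.5%.

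Levels of different genes were compared as CPM per kilobase (kb) of exon, as mean ± SD over the 19 tumours. Col6a1, an obligate chain of type VI collagen, was the highest at 503 ± 224 CPM per kb, followed by its partner Col6a2 at 155 ± 73.3 and by Col1a1, the main chain of type I collagen, at 138 ± 60.1. Col3a1, whose chain forms the homotrimer of type III collagen, stood at 91.2 ± 28.1 CPM per kb, Col5a1, a nucleator of fibril assembly, at 82.3 ± 34.2, and Col16a1, a fibril-associated chain, at 67.7 ± 24.1. Col2a1, the cartilage collagen, reached 1.12 ± 0.688 CPM per kb, and Col17a1, the hemidesmosome collagen of epithelium, 0.455 ± 0.221. The neighbours Col3a1 and Col5a1, and likewise Col4a5, Col1a2 and Col4a1 at 41.0 ± 10.9, 40.6 ± 12.4 and 39.6 ± 13.3 CPM per kb, differed by less than their SDs. With the longest transcript as length in place of all exons, Col3a1 stood in rank 3 and Col1a2 in rank 5, so the order of the type I and type III chains rests on the length used.

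At the low end, 8 genes averaged under 1 CPM. They include Col4a3 and Col4a4, chains of the kidney and lung basement membrane, Col4a6, which is known from smooth muscle and epithelial basement membranes, Col6a4 and Col25a1. Col19a1, a fibril-associated collagen, was the gene left out by the filter: it had 0 counts in 15 of 19 tumours. The 4 tumours with any count, 14 in 27HC 1_5, 7 in 27HC 2_3, 3 in 27HC 1_3 and 1 in DMSO 1_5, were all low-GC libraries, and 27HC 1_5 also had the highest skeletal muscle marker sum.

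**Figure D1:**
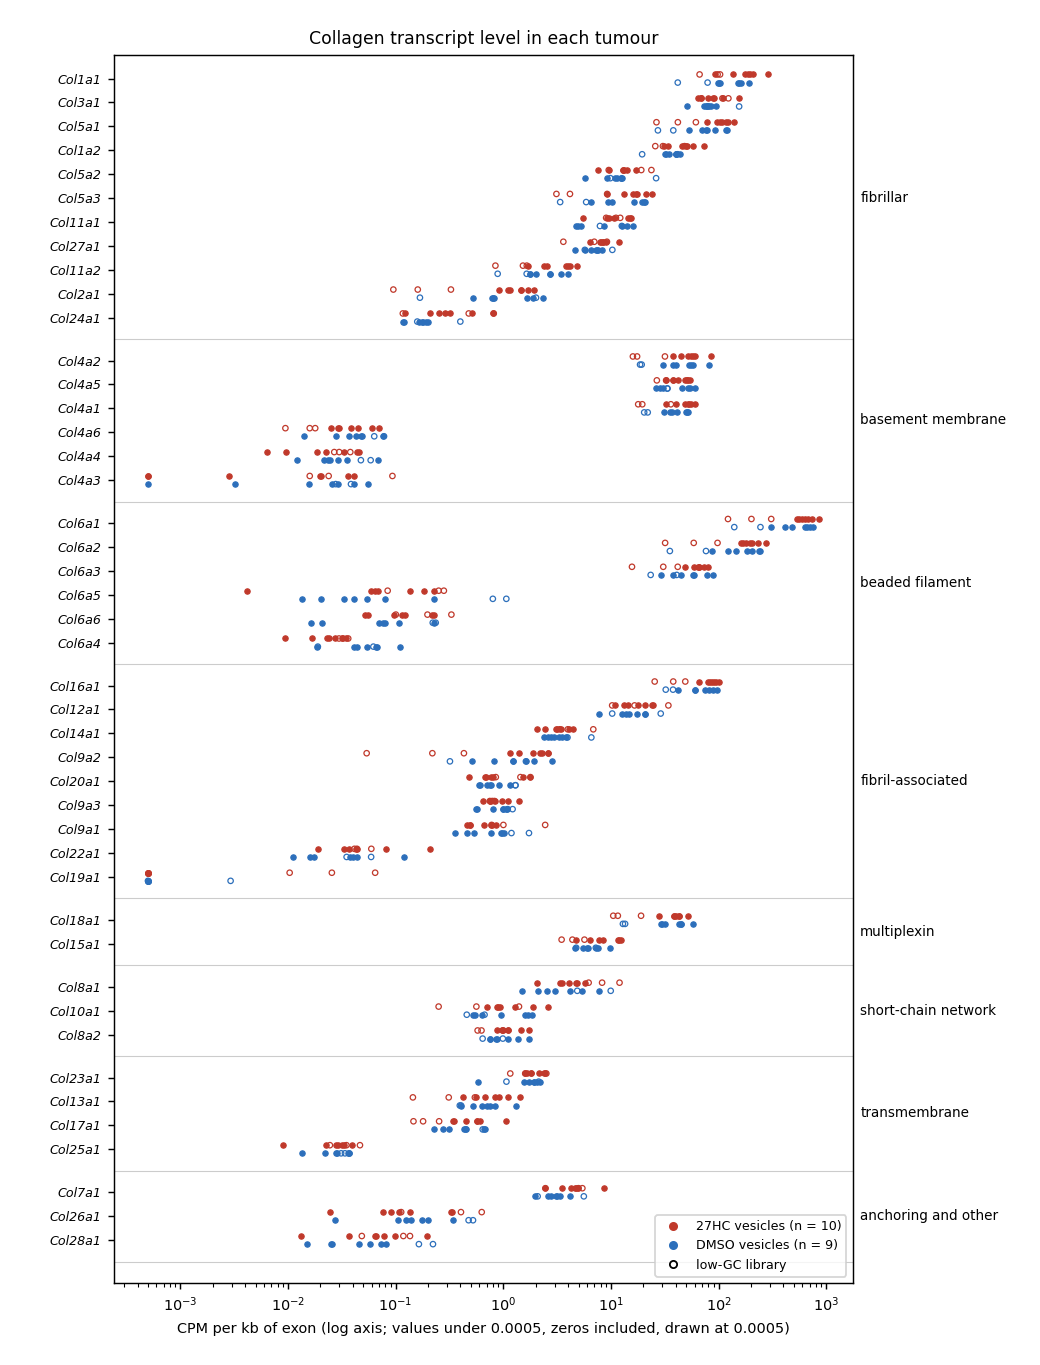
Level of all 44 collagen genes in each tumour, in CPM per kb of exon on a log axis, by class, with 27HC tumours above DMSO tumours in each row and open points for low-GC libraries. The genes span from Col6a1 at 503 CPM per kb to genes near 0, and the groups overlap in every row.

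No collagen gene passed the threshold between 27HC and DMSO tumours (edgeR quasi-likelihood test, Benjamini-Hochberg adjusted p under 0.05; smallest adjusted p 0.9998), and 0% of all 15629 genes did. DESeq2 called 2 genes, 0.0128% of those tested, none of them a collagen, and limma-voom called 0. Without adjustment, 3 of the 43 collagen genes had p under 0.05, or 6.98%, against 2.27% of all genes tested. Of these 2 lay above 0, where 1.29% of all genes did so with such a p, and 1 below, where 0.979% did. Log2 fold changes (27HC over DMSO) were above 0 for 32 and below 0 for 11 collagen genes, so that 74.4% were above 0, against 53.9% of all genes, and their median was 0.12, against 0.01 over all genes. The genes are measured in the same libraries and move together, so this count is a description. In 18 of the 43 genes leaving out some single tumour turned the sign, among them the abundant Col4a2, Col4a5, Col6a1, Col6a2, Col6a3 and Col18a1. The 95% confidence interval lay within a 2-fold change either way for 31 of the 43 genes and within a 1.5-fold change for 7. Without the low-GC libraries, 35 of 39 collagen genes were above 0 with a median of 0.23, against 49.6% and a median of -0.00 over all genes, and again 0 passed, as did 0% of all genes. Of these 39 genes 6 had an unadjusted p under 0.05, against 6.01% of all genes: Col1a1, Col1a2, Col24a1, Col27a1, Col15a1 and Col7a1. All 6 lay above 0, where 2.95% of all genes did so with such a p. Without those libraries the filter left out Col4a3, Col4a4, Col6a4 and Col28a1, so the counts cover different genes. Over all tumours these genes stood at -0.03, -0.37, -0.98 and 0.08 in the same order. With a GC covariate in place of leaving libraries out, 32 of 43 collagen genes were above 0 with a median of 0.097. Over all genes 51.0% were above 0 in that fit, with a median of 0.003. There 3 collagen genes had an unadjusted p under 0.05, against 4.89% of all genes, and 0 passed the threshold. The collagen median thus rose from 0.12 without the low-GC libraries but not with the covariate.

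The first of the numbers in each tumour's title, 1 or 2, has no stated meaning, and 5 27HC and 5 DMSO tumours carry a 1 while 5 27HC and 4 DMSO tumours carry a 2. The median collagen fold change was 0.01 among tumours numbered 1 (21 of 39 genes above 0) and 0.18 among tumours numbered 2 (29 of 39). The difference between them passed the threshold for 0 of the 43 collagen genes and 0% of all genes (edgeR interaction test). Without adjustment 1 collagen gene had p under 0.05 in that test, against 1.43% of all genes: Col15a1, at -0.23 with number 1 and 0.65 with number 2 on the log2 scale, with p = 0.034 and an adjusted p of 0.911 by edgeR.

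**Figure D2:**
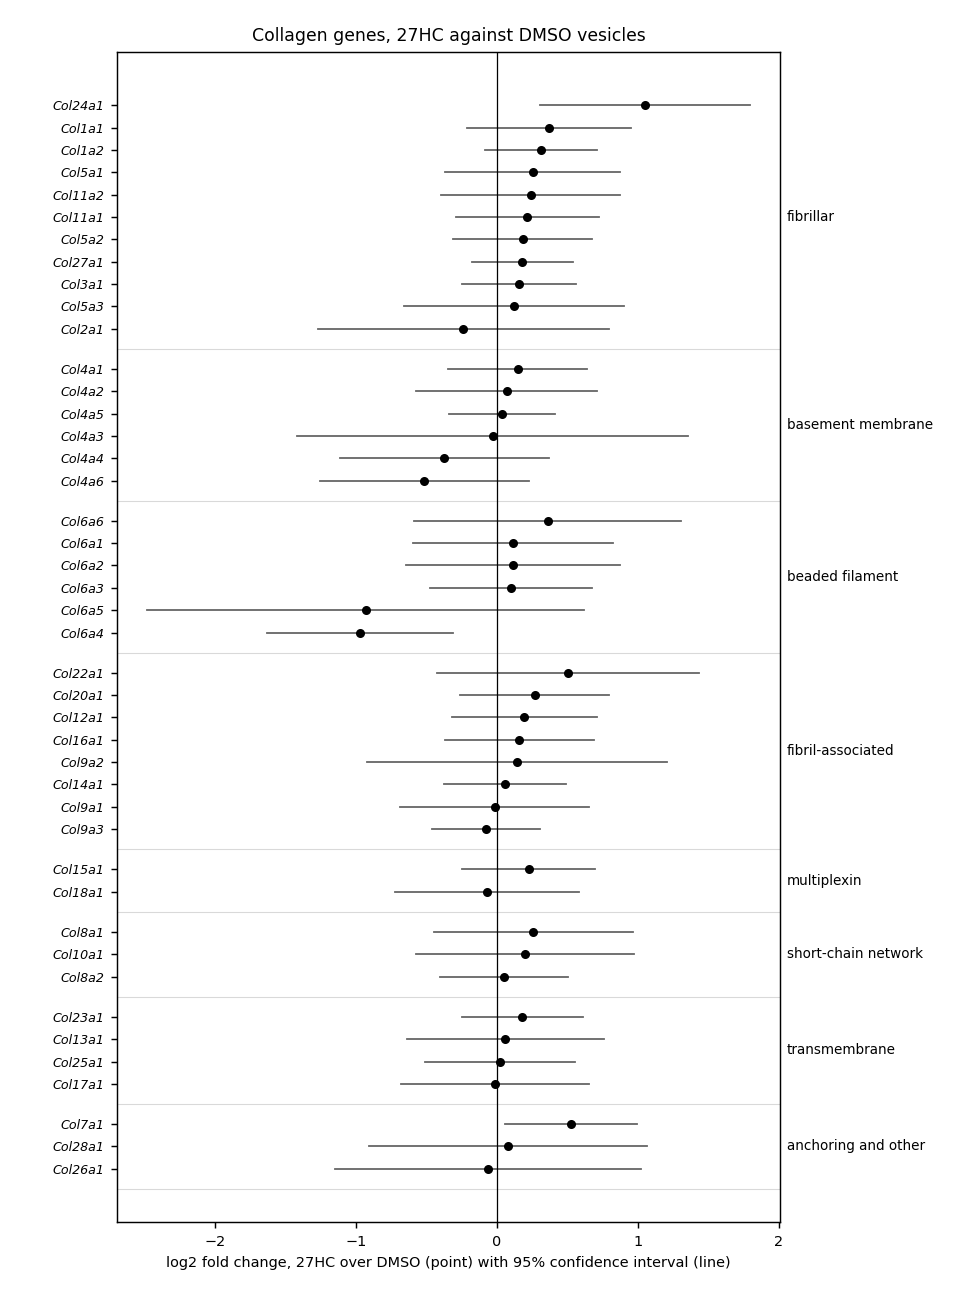
Log2 fold change (27HC over DMSO) of the 43 tested collagen genes with its 95% confidence interval, by class. The intervals of Col24a1, Col7a1 and Col6a4 leave out 0 before adjustment for 15629 genes, and none passes after it.

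Among fibrillar chains 10 of 11 were above 0, with a median log2 fold change of 0.21 and none past the threshold. Col1a1 had 437, 1019 and 1877 CPM as lowest, median and highest value in 27HC tumours, against 274, 681 and 1244 CPM in DMSO tumours. Of the 27HC tumours 6 lay above the DMSO median and 3 above every DMSO tumour, and the log2 fold change was 0.37 (SE 0.28, 95% interval -0.21 to 0.95). It was -0.10 among tumours numbered 1 and 0.81 among those numbered 2. Col1a2, the second chain of type I collagen, had 321, 584 and 918 CPM in 27HC tumours, against 242, 495 and 545 CPM in DMSO tumours. Of the 27HC tumours 6 lay above every DMSO tumour and the lowest was within the DMSO range, at a log2 fold change of 0.31 (SE 0.19). Col3a1 had 635, 879.8 and 1513 CPM in 27HC tumours, against 499, 783 and 1523 CPM in DMSO tumours, with both extremes in DMSO tumours and a log2 fold change of 0.16 (SE 0.20).

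Col5a1 had 225, 845 and 1169 CPM as lowest, median and highest value in 27HC tumours, against 232, 651 and 1012 CPM in DMSO tumours. The groups overlapped almost fully, with a log2 fold change of 0.25 (SE 0.30). Col5a2, its partner in type V collagen, had 73.2, 126 and 228 CPM in 27HC tumours, against 55.6, 109 and 252 CPM in DMSO tumours, at a log2 fold change of 0.18 (SE 0.24). The highest tumour of both groups was a low-GC library. Col24a1, a minor fibrillar chain known from developing bone and eye, had 0.888, 2.32 and 6.21 CPM in 27HC tumours, against 0.890, 1.33 and 3.04 CPM in DMSO tumours. Of the 27HC tumours 8 lay above the DMSO median and 4 above every DMSO tumour, yet the lowest tumour of all was a 27HC one. Its log2 fold change was 1.05 (SE 0.36), with an unadjusted p of 0.008 and an adjusted p of 0.9998 by edgeR, on 23 to 247 counts per tumour. Leaving out any single tumour gave values between 0.80 and 1.25. Col2a1 was the fibrillar chain below 0, at -0.24 (SE 0.49), though at 0.17 without the low-GC libraries, and the remaining fibrillar genes, Col5a3, Col11a1, Col11a2 and Col27a1, lay between 0.12 and 0.24.

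Of the 6 basement membrane chains 3 were above 0 and 3 below, with a median of 0.00. Col4a1 had 134, 331 and 454 CPM as lowest, median and highest value in 27HC tumours, against 152, 273 and 384 CPM in DMSO tumours. The 27HC tumours held both extremes, 4 above and 2 below every DMSO tumour, and the log2 fold change was 0.15 (SE 0.24). Col4a2 had 106, 322 and 563 CPM in 27HC tumours, against 123, 265 and 544 CPM in DMSO tumours. Its log2 fold change was 0.07 (SE 0.31), and the sign turned when DMSO 1_5, DMSO 2_3 or 27HC 2_1 was left out. Col4a5, the chain altered in Alport syndrome, had 179, 268 and 362 CPM in 27HC tumours, against 176, 225 and 409 CPM in DMSO tumours, at 0.04 (SE 0.18). Col4a6 had 0.0754, 0.232 and 0.557 CPM in 27HC tumours, against 0.111, 0.378 and 0.622 CPM in DMSO tumours. At 3 to 27 counts per tumour its log2 fold change was -0.51 (SE 0.35), and without the low-GC libraries it was -0.00. Col4a4 stood at -0.37 (SE 0.36) on 2 to 27 counts and Col4a3 at -0.03 (SE 0.67).

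Of the 6 type VI chains 4 were above 0 and 2 below, with a median of 0.11. Col6a1 had 535, 2523 and 3768 CPM as lowest, median and highest value in 27HC tumours, against 612, 2088 and 3311 CPM in DMSO tumours, and its log2 fold change was 0.12 (SE 0.34). Both extremes were 27HC tumours, and the sign turned without DMSO 1_5, a low-GC library that also had the highest salivary gland marker sum. Col6a2 had 265, 1453 and 2294 CPM in 27HC tumours, against 293, 1216 and 2008 CPM in DMSO tumours, at a log2 fold change of 0.11 (SE 0.36). Col6a3, the long chain that completes the type VI trimer and from which endotrophin is cleaved, had 188, 738 and 946 CPM in 27HC tumours, against 279.7, 540.4 and 1053 CPM in DMSO tumours, at 0.10 (SE 0.28). Both turned sign without DMSO 1_5 too. In all 3 of these genes 7 of 10 27HC tumours lay above the DMSO median and the lowest tumour of the series was the low-GC library 27HC 1_3. Col6a4 had 0.0801, 0.244 and 0.309 CPM in 27HC tumours, against 0.157, 0.461 and 0.927 CPM in DMSO tumours. None of the 27HC tumours exceeded the DMSO median, and the log2 fold change was -0.98 (SE 0.32), with an unadjusted p of 0.006 and an adjusted p of 0.9998 by edgeR, on 2 to 25 counts. Col6a5 ran from 0.0391 to 2.64 CPM in 27HC tumours and from 0.126 to 10.04 CPM in DMSO tumours. The fold change of Col6a5 was -0.93 (SE 0.74) over all tumours and 0.63 without the low-GC libraries, 2 of which, both DMSO, held its highest values. Col6a6 had 0.476, 1.08 and 3.02 CPM in 27HC tumours, against 0.148, 0.728 and 2.16 CPM in DMSO tumours. Its log2 fold change, the highest of the class, was 0.36 (SE 0.45), and 0.54 without the low-GC libraries.

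Among fibril-associated chains 6 of 8 tested genes were above 0 with a median of 0.15. Col12a1 and Col14a1, which bind the fibril surface, stood at 0.19 (SE 0.25) and 0.06 (SE 0.21), and Col16a1 at 0.16 (SE 0.25). Col22a1, a collagen of tissue junctions, was the largest of the class at 0.50 (SE 0.45), with 0.176, 0.396 and 1.92 CPM as lowest, median and highest value in 27HC tumours, against 0.102, 0.346 and 1.09 CPM in DMSO tumours. Among tumours numbered 2 it was -0.32. Of the multiplexins, Col15a1 had 22.1, 44.9 and 77.9 CPM in 27HC tumours, against 29.7, 39.1 and 62.5 CPM in DMSO tumours, at 0.22 (SE 0.23). Col18a1, the source of endostatin, had 73.7, 270.1 and 365 CPM in 27HC tumours, against 90.6, 221 and 408 CPM in DMSO tumours, at -0.07 (SE 0.31). Col18a1 was the only one of the 15 collagen genes above 100 CPM with a fold change below 0 in this fit, and it stood at 0.03 without the low-GC libraries.

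All 3 short-chain genes were above 0, the largest being Col8a1, a collagen of vessel walls and cornea, at 0.26 (SE 0.34). It had 16.1, 37.6 and 94.1 CPM as lowest, median and highest value in 27HC tumours, against 11.7, 32.7 and 77.9 CPM in DMSO tumours. Of the transmembrane collagens 3 of 4 were above 0. Col23a1 led them at 0.18 (SE 0.21), with 6.66, 10.3 and 14.4 CPM in 27HC tumours, against 3.34, 10.95 and 12.6 CPM in DMSO tumours, so that its median was lower in 27HC tumours although its mean was higher. Col7a1, which forms the anchoring fibrils under epithelium, had 25.1, 48.1 and 89.3 CPM in 27HC tumours, against 20.3, 31.6 and 57.6 CPM in DMSO tumours. Of the 27HC tumours 8 lay above the DMSO median and 1 above every DMSO tumour. Its log2 fold change was 0.52 (SE 0.22), with an unadjusted p of 0.029 and an adjusted p of 0.9998 by edgeR, and it was 0.51 and 0.50 among tumours numbered 1 and 2.

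**Figure D3:**
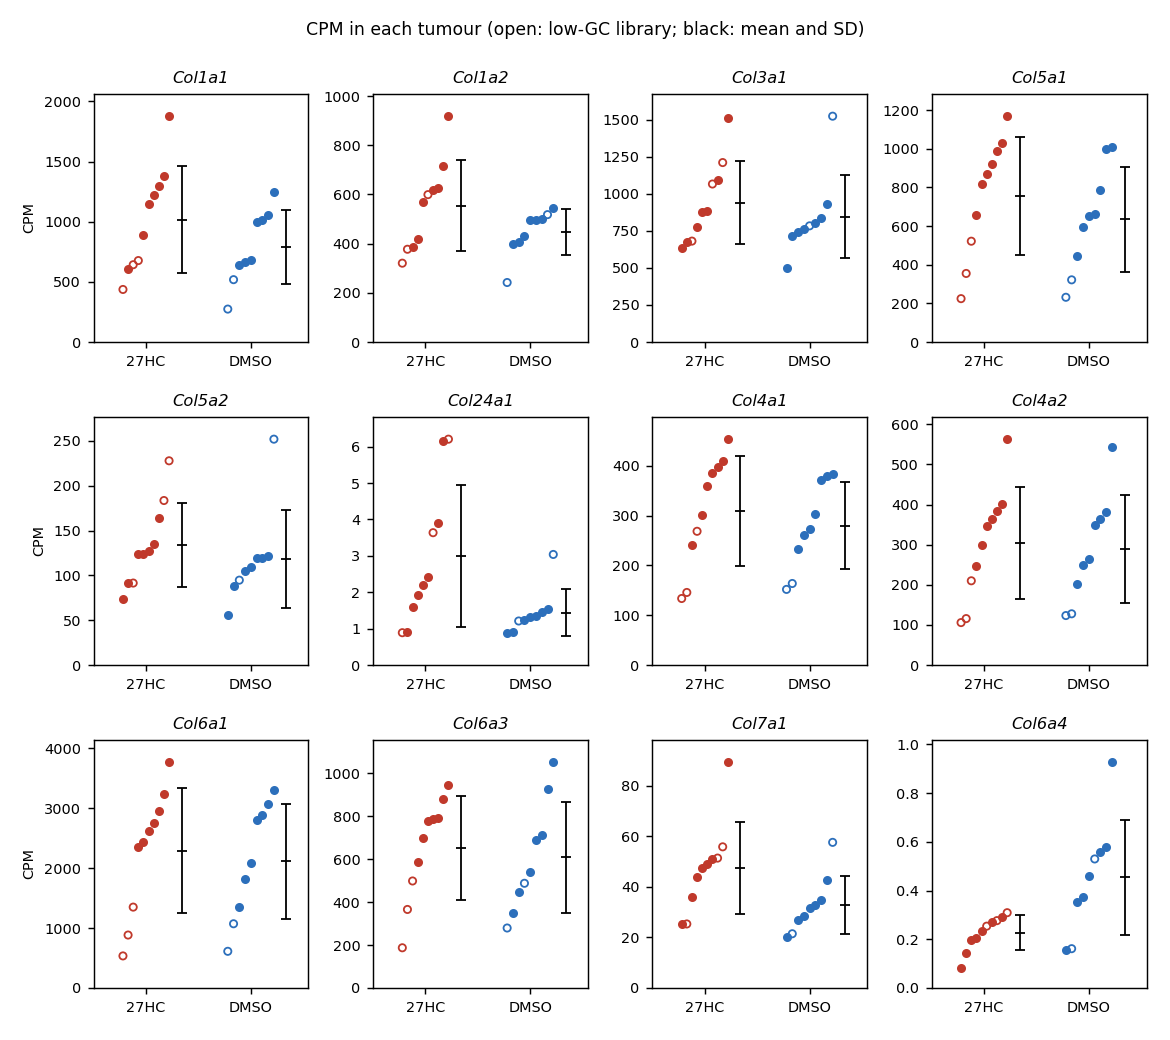
CPM of 12 collagen genes in each 27HC (left) and DMSO (right) tumour on linear axes from 0, with mean and SD and open points for low-GC libraries. In Col6a1 the open points lie at or near the bottom of both groups, and in Col5a2 they hold the highest value of both groups.

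The ratio of chains that share a trimer was steady for some pairs. Per kb of exon, Col6a1 stood at 3.33 ± 0.246 times Col6a2 over the 19 tumours (SD), with a range of 2.90 to 3.97, although each gene varied at least 7.04-fold between tumours. Col4a1 stood at 0.938 ± 0.147 times Col4a2. By the longest transcript, Col6a1 stood at 2.10 ± 0.155 times Col6a2, with a range of 1.83 to 2.50. By that length Col4a1 stood at 1.03 ± 0.162 times Col4a2. The ratio of Col1a1 to Col1a2 was 3.36 ± 0.906 by all exons and 1.60 ± 0.432 by the longest transcript. The values and SDs of these ratios thus rest on the length used. Col5a1 ranged from 1.38 to 13.5 times Col5a2 by all exons, and from 0.965 to 9.40 times by the longest transcript. Col4a5 stood at least 346 times above Col4a6 in each tumour by all exons, and at least 296 times by the longest transcript. Both genes lie head to head on chromosome X. By all exons the mean ratios of Col6a1 to Col6a2 were alike in both groups, at 3.32 ± 0.211 in 27HC tumours (n = 10) and 3.35 ± 0.294 in DMSO tumours (n = 9). Exons of Col4a1 and Col4a2 overlap by 22 bases on opposite strands. The libraries kept strand, but the sources do not say whether the counting used it.

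Co-variation was measured as the correlation of log2 CPM across tumours for 14 gene pairs and 11 pairs of a gene with a marker list, 25 relations in all. The points of a relation share library and normalization. Over all 19 tumours 15 relations passed an adjusted p of 0.05, all of them positive (two-sided permutation test of Pearson r, 100000 resamples, Benjamini-Hochberg over the 25), and 14 by Spearman rho. Without the low-GC libraries 10 passed, 8 of which had also passed over all 19, and 8 passed by rho. The smallest p the resamples can give is 1e-05.

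Col6a1 and Col6a2 correlated at r = 0.997 over 19 tumours and rho = 0.991 (permutation p = 1e-05 for both, adjusted p 5e-05 and 6.25e-05), at r = 0.995 without the 2 tumours farthest from the Col6a1 median, and at 0.992 in the 14 other libraries. Within groups r was 0.998 in 27HC tumours and 0.996 in DMSO tumours. For Col4a1 and Col4a2, r was 0.971 and rho 0.925 (permutation p = 1e-05 for both, adjusted p 5e-05 and 6.25e-05), 0.954 without the 2 farthest tumours, and 0.893 in the 14 libraries. Among 27HC tumours it was 0.977 and among DMSO tumours 0.973. The head-to-head pair Col4a5 and Col4a6, whose start sites lie farther apart, gave r = 0.033 and rho = 0.021 (permutation p = 0.891 and 0.935, adjusted 0.891 and 0.974), with Col4a6 at 3 to 27 counts per tumour, and 0.234 without the 2 farthest tumours. Col4a3 and Col4a4 also lie head to head, on chromosome 1, with gene starts at 82586921 and 82586849 on opposite strands. These starts lie closer together than those of Col4a5 and Col4a6. This pair gave r = 0.184 and rho = 0.026 (permutation p = 0.447 and 0.916, adjusted 0.559 and 0.974). Col4a3 had 0 to 37 counts per tumour and Col4a4 had 2 to 27. Counts this low limit any correlation.

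Type I chains Col1a1 and Col1a2 correlated at r = 0.791 and rho = 0.693 (permutation p = 5e-05 and 0.00134, adjusted 0.000179 and 0.00372), at 0.581 without the 2 farthest tumours and at 0.819 in the 14 libraries. Across classes, Col1a1 and Col4a1 gave r = 0.875 and rho = 0.911 (permutation p = 1e-05 for both, adjusted p 5e-05 and 6.25e-05), 0.883 without the 2 farthest tumours, and 0.881 in the 14 libraries. Col1a1 and Col6a1 gave r = 0.849 and rho = 0.788 (permutation p = 1e-05 and 1e-04, adjusted 5e-05 and 0.0005), 0.846 without the 2 farthest, and 0.657 in the 14 libraries, where rho was 0.534 (permutation, adjusted p 0.0942). Col4a1 and Col6a1 gave r = 0.931 and rho = 0.863 (permutation p = 1e-05 for both, adjusted p 5e-05 and 6.25e-05), 0.912 without the 2 farthest, and 0.821 in the 14 libraries. Each of these pairs was positive within both groups and within both title numbers. Other chains of these classes did not all follow: over 19 tumours Col3a1 gave r = -0.22 with Col4a1 and -0.25 with Col6a1, and Col5a2 gave -0.38 with each. In the 14 libraries these 4 values were 0.48, 0.20, 0.37 and 0.10 in the same order, and Col1a1 with Col6a3 gave 0.15, against 0.64 over 19 tumours.

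Several other pairs changed when the low-GC libraries were left out, while Col12a1 with Col14a1 changed little. Col1a1 and Col3a1 gave r = 0.081 and rho = 0.121 over 19 tumours (permutation p = 0.743 and 0.622, adjusted 0.807 and 0.777). In the 14 libraries they gave r = 0.610 and rho = 0.657 (permutation p = 0.018 and 0.013, adjusted 0.046 and 0.044), and r was 0.333 there without the 2 farthest tumours, so the relation rests on 27HC 2_2 and 27HC 1_4. Col5a1 and Col5a2 gave r = -0.279 and rho = 0.023 over 19 tumours (permutation p = 0.249 and 0.930, adjusted 0.345 and 0.974). In the 14 libraries they gave r = 0.474 and rho = 0.648 (permutation p = 0.087 and 0.014, adjusted 0.139 and 0.044), so the pair passed by rank only, and r was 0.707 there without DMSO 2_4 and DMSO 1_2. Col6a1 and Col6a3 went the other way, at r = 0.786 over 19 tumours (permutation p = 0.00014, adjusted 0.000437; rho = 0.635) and 0.215 in the 14 libraries (permutation p = 0.459, adjusted 0.522; rho = 0.323). Col8a1 and Col8a2 stood at -0.070 over 19 tumours and 0.532 in the 14 libraries, past the threshold in neither (permutation, adjusted p 0.807 and 0.0996), with rho at -0.133 and 0.411. Col12a1 and Col14a1 gave 0.454 and 0.541 (permutation, adjusted p 0.0798 and 0.0993), with rho at 0.426 and 0.534. Col18a1 fell into separate clusters by library, so Col15a1 and Col18a1 are given within the 14 libraries, at r = 0.414 and rho = 0.411 (permutation p = 0.141 and 0.145, adjusted 0.207 and 0.216).

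**Figure D4:**
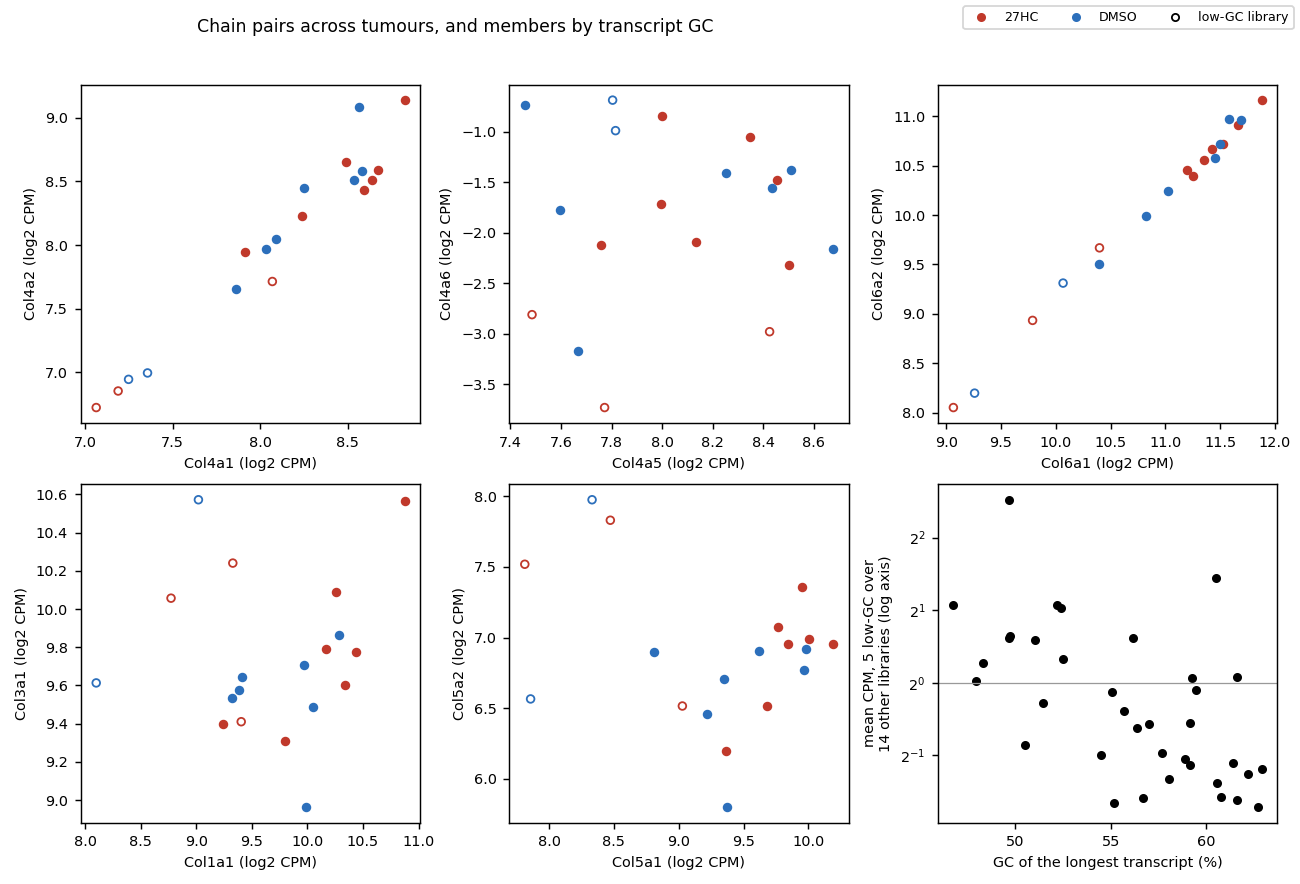
The first 5 panels plot the log2 CPM of a chain pair in each 27HC (red) and DMSO (blue) tumour, with open points for low-GC libraries, and the last plots for each of 36 genes the ratio of mean CPM in low-GC over other libraries (log axis) against transcript GC. Col4a1 with Col4a2 and Col6a1 with Col6a2 lie on a line that includes the open points, while in Col5a1 with Col5a2 the open points lie at or near the low end of Col5a1.

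Of the gene and marker list relations, Col4a1 ran with the summed endothelial markers at r = 0.809 over 19 tumours (rho = 0.770; permutation p = 3e-05, adjusted 0.000125), 0.770 without the 2 farthest tumours, and 0.632 in the 14 libraries (permutation p = 0.017, adjusted 0.046), where rho was 0.574 with an adjusted permutation p of 0.0839. With the epithelial markers Col4a1 gave 0.762 over 19 tumours (rho = 0.746; permutation p = 0.00026, adjusted 0.00065) and 0.734 in the 14 libraries (permutation p = 0.00293, adjusted 0.0122), where rho was 0.560 with an adjusted permutation p of 0.0839. Col1a1 and the fibroblast markers gave 0.577 (rho = 0.630; permutation p = 0.0102, adjusted 0.0195) and 0.482 in the 14 libraries (permutation p = 0.0803, adjusted 0.139). Col3a1 and the fibroblast markers gave 0.341 over 19 tumours (permutation p = 0.155, adjusted 0.228) and 0.732 in the 14 libraries (rho = 0.802; permutation p = 0.00396, adjusted 0.0141). Col6a1 and the fibroblast markers gave 0.605 (rho = 0.547; permutation p = 0.00598, adjusted 0.0125), which rested on the 2 farthest tumours, 27HC 1_3 and DMSO 1_5, and was 0.307 without them. Both are low-GC libraries, and in the 14 libraries r was 0.473 (rho = 0.508; permutation p = 0.0889, adjusted 0.139), no longer past the threshold. Col17a1 and the epithelial markers gave 0.546 (rho = 0.381; permutation p = 0.0150, adjusted 0.0269), likewise 0.348 without 27HC 1_3 and 27HC 2_3, and 0.407 in the 14 libraries (rho = 0.204; permutation p = 0.151, adjusted 0.2098), again not past the threshold. Col15a1 and the endothelial markers gave 0.523 over 19 tumours (rho = 0.474; permutation p = 0.0232, adjusted 0.0387) and 0.303 in the 14 libraries, not past the threshold there (permutation, adjusted p 0.366). Col18a1 and the endothelial markers gave 0.539 in the 14 libraries (rho = 0.565; permutation p = 0.048, adjusted 0.0993). With skeletal muscle markers, Col1a1 gave -0.082 and Col4a1 -0.208, and Col4a1 with pericyte markers gave -0.136, none past the threshold.

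Among 36 collagen genes that averaged at least 1 CPM, 64.9% of the 630 pairs correlated above 0 over 19 tumours, with a median r of 0.23, and 81.3% in the 14 libraries, with a median of 0.33. Within the fibrillar class 80.0% of 55 pairs were above 0 over 19 tumours and 100% in the 14 libraries, at medians of 0.33 and 0.48. The type VI chains gave a median of -0.29 over 19 tumours and 0.18 in the 14 libraries, with Col6a5 and Col6a6 apart from Col6a1, Col6a2 and Col6a3.

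**Figure D5:**
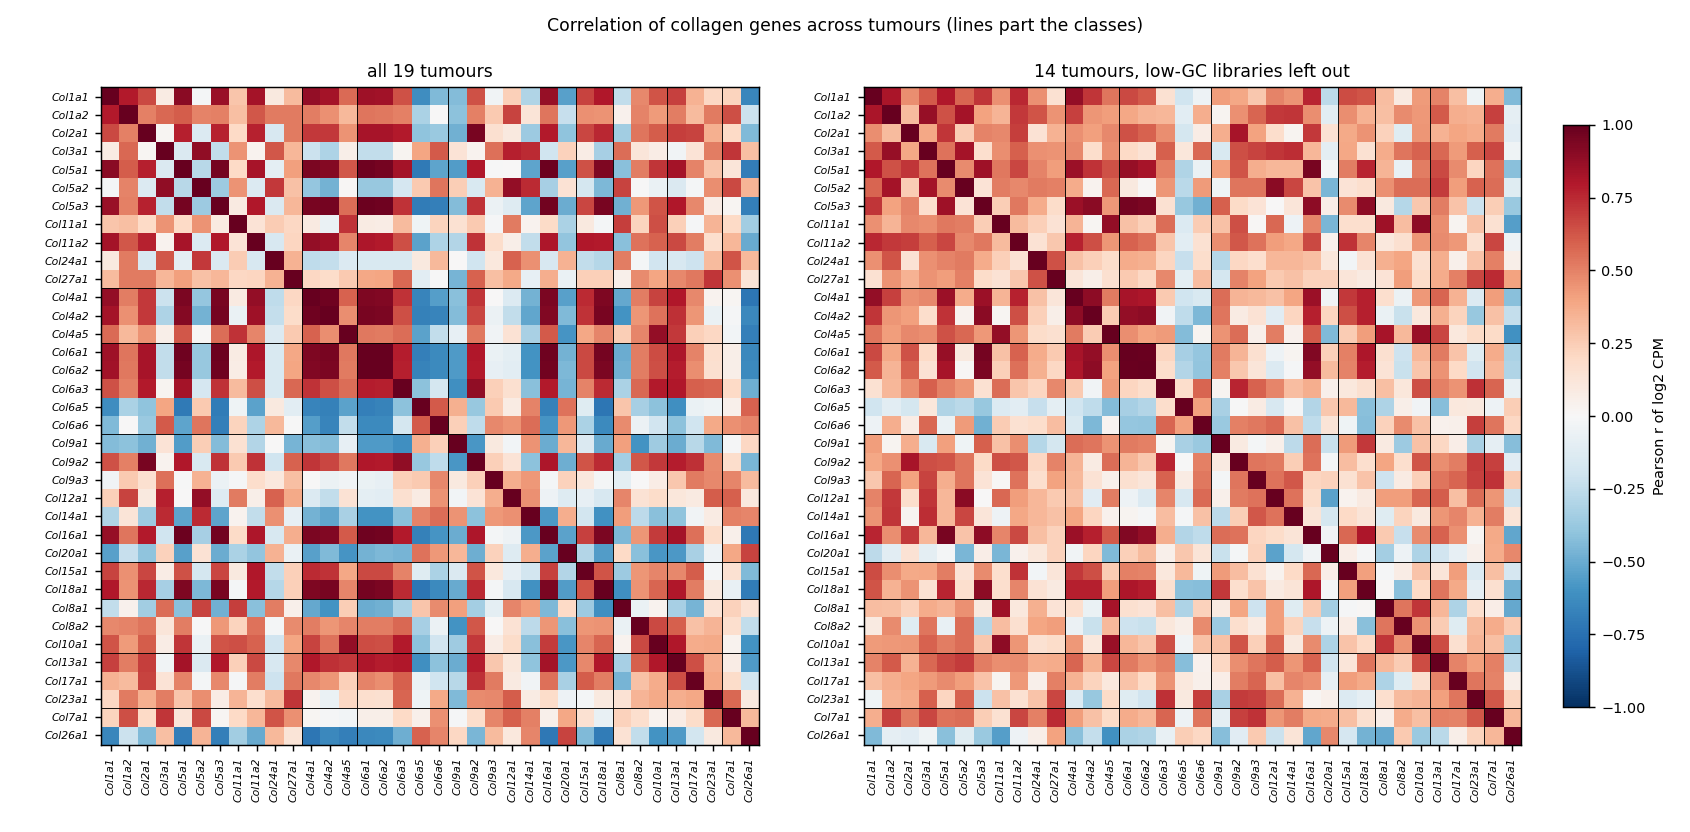
Pearson r of log2 CPM between 36 collagen genes, over all 19 tumours (left) and the 14 libraries outside the low-GC set (right), with lines between classes and colour from -1 (blue) to 1 (red). The left panel holds more blue, and in the right panel each fibrillar pair is above 0.

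Collagen levels moved with library GC in both directions. Of the 36 genes 24 correlated positively with the mean GC of the library, from 0.91 for Col18a1 to -0.72 for Col8a1. Mean GC is computed from the same counts, so these values are a description. Col6a1 averaged 891 CPM in the 5 low-GC libraries, against 2673 CPM in the other 14, a ratio of 0.333, and Col6a2, Col5a3, Col18a1, Col4a2, Col5a1 and Col1a1 had ratios of 0.318, 0.326, 0.336, 0.385, 0.399 and 0.485. Col18a1 did not overlap, at 73.7 to 134 CPM in low-GC libraries, against 195 to 408 CPM in the others. Nor did Col11a2, by a narrow gap, at 5.81 to 11.36 CPM against 11.59 to 33.3 CPM in the same order. Col3a1, Col5a2, Col14a1, Col9a1, Col8a1 and Col6a5 were higher in the low-GC libraries, with ratios of 1.25, 1.53, 1.57, 2.09, 2.11 and 5.74. By the genes' own sequence, 19 of 23 genes with at least 55% GC in the longest transcript were lower in low-GC libraries and 10 of 13 with less were higher. The correlation across these 36 genes between transcript GC and log2 ratio was -0.60. The low-GC libraries were set apart by transcript GC of these same counts, so this pattern is partly fixed by that choice. These ratios and counts are a description too, and the shares over all genes are not given here. Endothelial markers summed to 160.5 to 217 CPM in low-GC libraries, against 175 to 302 CPM in the others, epithelial markers to 45.3 to 108 CPM, against 80.4 to 148 CPM, and fibroblast markers to 784 to 1028 CPM, against 865 to 1194 CPM. The part of library composition, cell content and RNA quality in these differences was not tested.

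Genes that make, bind and degrade collagen were read from 6 lists, and none of their genes passed the threshold. Of 20 genes for chain folding and modification 13 were above 0 and 7 below (median log2 fold change 0.08); those of smallest p in each direction were Tmem38b at 0.28 (SE 0.19) and P3h3 at 0.18 (SE 0.12) above 0, and Colgalt2 at -0.13 (SE 0.20) and Fkbp14 at -0.09 (SE 0.16) below. Of 13 tested genes for propeptide cleavage and cross-linking 9 were above 0 and 4 below (median 0.07). The lysyl oxidase gene Loxl3, whose product cross-links collagen, had 95.1, 194 and 254 CPM as lowest, median and highest value in 27HC tumours, against 122, 163 and 181 CPM in DMSO tumours, at 0.28 (SE 0.15), and Loxl1 stood at 0.36 (SE 0.27). Pcolce2, an enhancer of propeptide cleavage, stood at -0.11 (SE 0.12) and Loxl4 at -0.15 (SE 0.16). Of 12 fibril-binding proteins 10 were above 0 and 2 below (median 0.22). Those of smallest p in each direction were the proteoglycan Bgn at 0.26 (SE 0.16) and the matricellular gene Thbs2 at 0.30 (SE 0.33) above 0, and Dcn at -0.19 (SE 0.28) and Lum at -0.02 (SE 0.37) below 0.

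Of 9 tested collagen receptors 6 were above 0 and 3 below (median 0.06). The integrin chains Itga10, Itga11 and Itgb1 stood at 0.28 (SE 0.17), 0.34 (SE 0.21) and -0.17 (SE 0.18). The leukocyte receptor Lair1 stood at -0.27 (SE 0.35). Of 12 genes for collagen breakdown 5 were above 0 and 7 below (median -0.08). Mmp13, a collagenase that cuts fibrillar collagen, had 7.61, 17.2 and 32.0 CPM as lowest, median and highest value in 27HC tumours, against 17.97, 25.5 and 51.2 CPM in DMSO tumours. The groups overlapped between 17.97 and 32.0 CPM. Its log2 fold change was -0.67 (SE 0.22), with an unadjusted p of 0.006, the only one under 0.05 in the 6 lists, and an adjusted p of 0.9998 by edgeR. Over all genes tested 2.27% had an unadjusted p under 0.05 in that fit. Without the low-GC libraries the log2 fold change of Mmp13 was -0.46. Mmp8 stood at -0.50 (SE 0.48), the gelatinase gene Mmp2 at 0.10 (SE 0.22) and the inhibitor gene Timp1 at 0.12 (SE 0.20). Of 15 laminins and other basement membrane genes 11 were above 0 and 4 below (median 0.10). Lama1 stood at 0.69 (SE 0.37), Lamb2 at 0.24 (SE 0.18) and Lamb3 at -0.31 (SE 0.18).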

How the data were processed

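The authors deposited 1 table of expected counts per gene for 19 tumours, and columns were matched to samples by title. Named in the submitters' processing notes, without their roles, are the build GRCm38, kallisto 0.44.0, limma and edgeR; the annotation used and any filtering are not stated. Per the labels' protocols, libraries were stranded poly(A) libraries. Estimated counts divide reads shared by similar transcripts by a model.

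Here the counts were rounded and fitted over all genes with edgeR 4.0.16 (R 4.3.3): TMM normalization, the default filter (filterByExpr; 11167 genes left out), the quasi-likelihood test and Benjamini-Hochberg adjustment at 0.05. CPM use TMM-scaled library sizes, and correlations take log2 CPM at a prior count of 2. Symbols were found for 26290 identifiers and not for 506. Lengths, transcript GC and overlaps come from GENCODE M21 (GRCm38). The fit was tested on simulated counts. No duplicated library was found: the lowest chi-square per degree of freedom within a group was 39.0. Alternatives were DESeq2 1.42.0, limma-voom (limma 3.58.1), other scalings and filters, sample weights, title numbers as block or covariate, a skeletal muscle covariate and each tumour left out. Leaving out the low-GC libraries and a GC covariate were added after seeing the data. The members, classes, marker lists and relations were chosen with earlier results of these data known. Named with full values are 10 major chains, the gene of largest fold change per class, the 4 smallest p in each direction and, per pathway list, the 2 smallest p in each direction; other members are named as part of their class. Of the genes this rule takes, 1 is not reported here.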

Additional observations from a re-analysis of the deposited data

Results flagged for a closer look

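In each group of tumours, the highest and lowest log2 CPM of each collagen gene were compared with the nearest other tumour (Dixon's criterion, 95%). This flags about 1 in 20 groups by chance. The values below are printed as CPM, on which the gaps look different. Of 88 groups 8 were flagged, 5 of them in low-GC libraries. In low-GC libraries, Col1a2 had 242 CPM in DMSO 1_5, where the other DMSO tumours had 397 to 545 CPM. Col24a1 had 3.04 CPM in DMSO 2_3, where the others had 0.890 to 1.54 CPM, and Col14a1 had 46.1 CPM in the same tumour, where the others had 16.6 to 27.7 CPM. Col27a1 had 47.0 CPM in 27HC 1_3, where the other 27HC tumours had 83.1 to 154 CPM, and Col9a1 had 12.4 CPM there, where the others had 2.35 to 5.08 CPM. In the other libraries, Col11a1 had 70.5 CPM in 27HC 2_1, where the other 27HC tumours had 115 to 196 CPM. In 27HC 1_2, Col6a5 had 0.0391 CPM, where the other 27HC tumours had 0.557 to 2.64 CPM, and Col25a1 had 0.117 CPM, where the others had 0.293 to 0.603 CPM.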

How the results depend on the processing

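Under all alternatives run, DESeq2 and limma-voom included, 0 collagen genes and 0 pathway genes passed the threshold. DESeq2 moved the count over all genes to 2 and that of marker genes to 1. Of 1389 alternative fold changes of 44 named genes, 1344 kept their direction and 45 turned, none of them past the threshold, and the cause was not tested. Among tumours numbered 1 alone, values were -0.10 for Col1a1, -0.14 for Col4a1, -0.34 for Col4a2, -0.12 for Col6a1, -0.11 for Col6a2, -0.23 for Col15a1, 0.17 for Fkbp14, -0.14 for Loxl1, 0.060 for Pcolce2, 0.011 for Dcn, 0.065 for Lum, 0.12 for Itgb1, 0.060 for Lair1, -0.17 for Mmp2 and -0.049 for Lamb2. Among tumours numbered 2 alone, they were -0.32 for Col22a1, -0.17 for Col8a1 and 0.054 for Col4a4. DESeq2 gave 0.43 for Mmp8. With limma-voom, Col6a5 was 0.028, Lum 0.024 and Mmp8 0.0054, and with sample weights Col6a5 was 1.07. Without the low-GC libraries Col6a5 was 0.63 and Lum 0.018, and with the GC covariate Lum was 0.044. Leaving out 1 tumour gave -0.07 to 0.24 for Col4a2, -0.022 to 0.22 for Col6a1, and -0.029 to 0.24 for Col6a2 and for Col6a3. It also gave -0.30 to 0.24 for Lum, -0.010 to 0.18 for Mmp2 and -0.66 to 0.43 for Mmp8. Over all alternatives the basement membrane median ran from -0.24 to 0.24 and the fibrillar median stayed above 0, from 0.05 to 0.45.

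Fitting the full title number as a replicate block called 0 collagen genes and gave 0.31 for Col6a5, 0.0063 for Lum and 0.088 for Mmp8. The labels do not say whether the numbers pair the samples. Of 9 same-numbered pairs 5 had deviations correlated over 0.1, and 1 matched its own number best. The range was -0.43 to 0.78, with the highest value in pair 2_3, where both tumours are low-GC libraries. This check cannot tell whether the samples are paired.

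The 15 relations past the threshold became 5 among DMSO tumours alone, 7 among tumours numbered 1 and 10 without the low-GC libraries, each with fewer tumours, and 13 to 15 with 1 tumour left out. Of 650 alternative correlations 28 turned. Among DMSO tumours alone, r was -0.261 for Col1a1 with Col3a1, -0.171 for Col4a5 with Col4a6, 0.325 for Col8a1 with Col8a2, 0.194 for Col4a1 with pericyte markers, and 0.089 and 0.068 for Col1a1 and Col4a1 with muscle markers. Among tumours numbered 1, it was -0.262 for Col1a1 with Col3a1, -0.058 for Col4a5 with Col4a6, -0.138 for Col3a1 with fibroblast markers and 0.040 for Col4a1 with pericyte markers, and among those numbered 2 it was 0.137 for Col1a1 with muscle markers. Without the low-GC libraries, it was 0.474 for Col5a1 with Col5a2, -0.012 for Col4a5 with Col4a6, 0.532 for Col8a1 with Col8a2, 0.332 for Col4a1 with pericyte markers, and 0.273 and 0.130 for Col1a1 and Col4a1 with muscle markers. Leaving out 1 tumour gave -0.156 to 0.234 for Col1a1 with Col3a1, -0.035 to 0.297 for Col4a3 with Col4a4, -0.073 to 0.178 for Col4a5 with Col4a6, -0.205 to 0.095 for Col8a1 with Col8a2, -0.229 to 0.014 for Col4a1 with pericyte markers and -0.153 to 0.046 for Col1a1 with muscle markers. Genes under 1 CPM rest on few counts, so their fold changes and correlations are imprecise.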
